A study of Homo sapiens with 2 samples.

Results

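The mitochondrial genome was examined base by base in RNA from HEK-293T cells, an established human embryonic kidney line. Every listed A position of chrM was taken on both strands, with T positions of the minus strand read as their complement. These came to 5679 of 4079392 listed A positions in the library without ABA and 5179 of 3518802 in the library with ABA. A position was listed from 6 reads upward, so a stretch with fewer reads is absent from the files. Of the mitochondrial positions, 4943 were listed in both libraries, and 3985 had at least 20 reads in both.

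The cells held the CIRTS-hADAR biosensor in both libraries, an RNA-targeting system that carries the human adenosine deaminase ADAR. One was made without ABA, the plant hormone abscisic acid used to bring the parts of the system together, and the other with ABA. The dose and time of ABA, and how the biosensor was delivered, are not given in the sources used here. There was 1 library per condition, so no value has a replicate error, and every interval below is a 95% interval for counting error alone. The cell line was not checked against marker genes, because no gene annotation of the build used was at hand.

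Human mitochondrial DNA is a small circle whose strands are both transcribed into long precursors. Most tRNAs lie between the rRNA and mRNA sequences and are cut out by RNase P and RNase Z, which releases the rRNAs and mRNAs. The mRNAs encode subunits of respiratory complexes I, III, IV and V, and ND6 is the only one read from the strand that is otherwise poor in genes. ADAR turns adenosine in double-stranded RNA into inosine, which is read as G. ADAR enzymes are known from the nucleus and the cytosol. Some mitochondrial adenosines carry N1-methyladenosine, a base modification that disturbs reverse transcription and can be read as another base.

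The kinds of transcript can be told apart by position and strand: rRNAs, mRNAs, tRNAs and the antisense strand of each. Their depth, in reads per listed A position, differed by far more than it differed between the libraries. Plus-strand positions had a mean of 58.8 reads without ABA and 63.8 with ABA, and minus-strand positions 9.52 and 9.04. The deepest plus-strand position had 200 and 181 reads, and the deepest minus-strand position 27 and 31. The minus strand gave 4.46% of mitochondrial base reads without ABA and 2.74% with ABA. A base read is 1 read at 1 listed position. Since positions below 6 reads are missing, a mean of shallow stretches is biased upward.

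**Figure D1:**
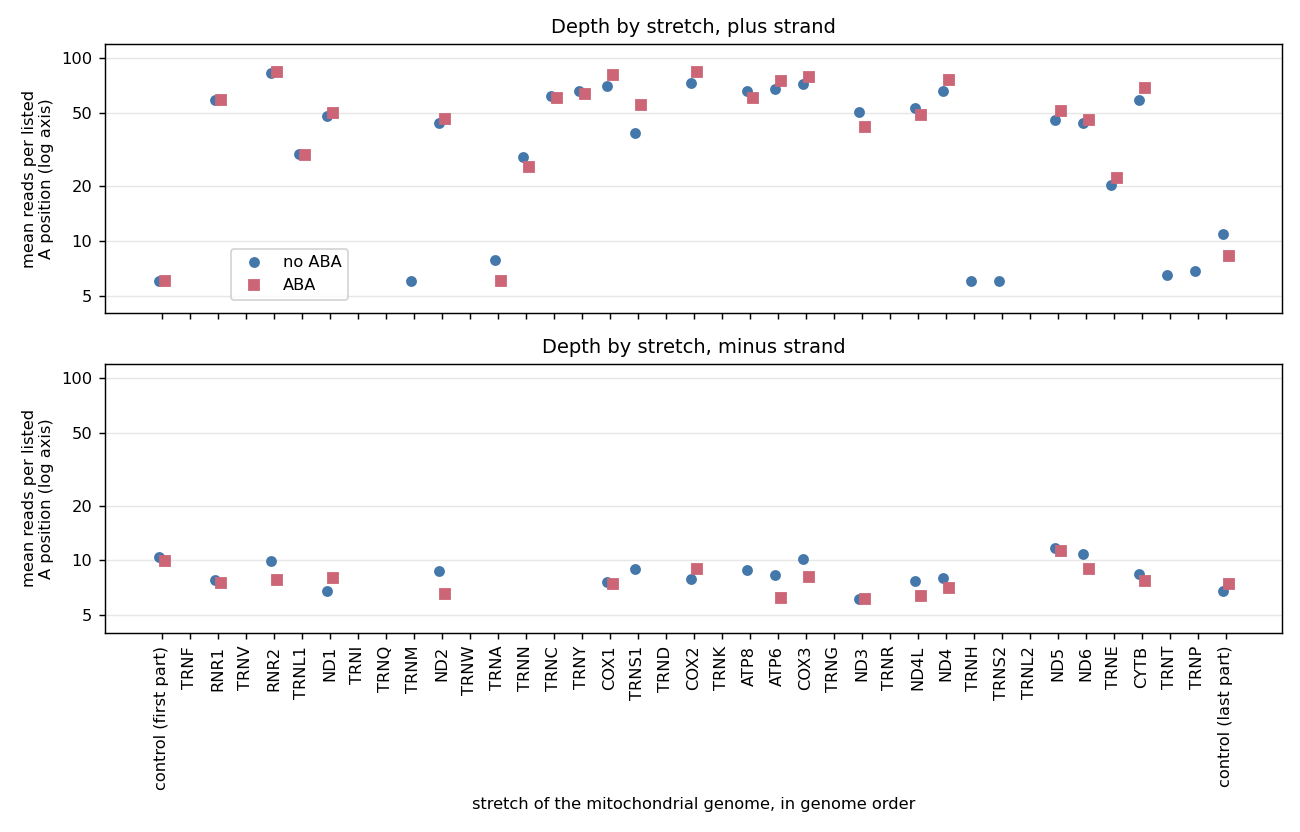
Mean reads per listed A position (log axis) for the stretches of the mitochondrial genome in genome order, with the plus strand above and the minus strand below; circles are the library without ABA, squares the one with ABA, and a missing point means no listed position. The rRNAs and mRNAs of the plus strand lie between 41.9 and 84.4 reads, while the minus strand of ND6 lies at 10.9 and 8.99.

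The large rRNA, RNR2, was the deepest gene without ABA, at a mean of 83.4 reads, and had 83.7 with ABA. The small rRNA, RNR1, had 59.0 and 59.4. The libraries were enriched for mRNA per the labels, so the level of rRNA here is that left after the enrichment. Among mRNAs, those of complex IV (cytochrome c oxidase) were the deepest. COX1 had 70.8 and 81.1 reads, COX2 had 73.0 and 84.4, and COX3 had 72.0 and 78.7. The complex V (ATP synthase) mRNAs ATP8 and ATP6 had 66.6 and 67.7 without ABA, and 60.8 and 74.9 with ABA. Of the complex I (NADH dehydrogenase) mRNAs, ND4 had 66.5 and 75.8, ND2 had 44.3 and 46.4, and ND5 had 46.1 and 51.5. CYTB, the complex III subunit, had 58.8 and 68.5.

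Set against nuclear base reads, the mitochondrial reads at positions listed in both libraries were 1.09 times as many with ABA as without. The ratio was 1.03 for rRNA, 1.12 for plus-strand mRNAs and 0.914 for the minus strand. COX1 stood at 1.18, ND4 and CYTB at 1.17, ND5 at 1.15, COX2 at 1.14, and ATP6 and COX3 at 1.13. ND1 and ND2 stood at 1.06. Below 1 were ATP8, ND3 and ND4L, at 0.851, 0.823 and 0.849. With 1 library per condition these ratios have no test, and ABA cannot be told apart from any other difference between the libraries. In bulk RNA, fewer cells with a transcript and less of it per cell cannot be told apart.

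Those 3 reading frames, the shortest, were thinly covered near their 5′ ends. With each rRNA and mRNA cut into 5 equal parts along the transcript, the part at the 5′ end was the shallowest in 9 of 14 plus-strand genes without ABA. With ABA it was so in 11, with 2 parts that had no listed position taken as the shallowest. ATP8 had 10.3 reads in that part without ABA and no listed position there with ABA. ND4L had 11.4 reads and none listed. ND3 had 14.7 and 6.83, and COX2 31.7 and 25.5. ATP8 and ND4L each share an mRNA with the gene that follows, ATP6 and ND4, and positions where the reading frames overlap were counted for both genes in values by gene.

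The sense strand of tRNAs was nearly absent from the files. Of the 14 tRNAs encoded on the plus strand, 9 had no listed sense position in either library, and only TRNL1 reached 20 reads. TRNL1, the leucine tRNA between RNR2 and ND1, had 25 listed positions with at most 50 reads without ABA and 43 with ABA. Of the 8 tRNAs encoded on the minus strand, 7 had no listed sense position, and TRNS1 had 1, without ABA.

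The antisense strand of those minus-strand tRNAs was well covered, and it was the strand of the neighbouring plus-strand mRNAs. Of the 8, 7 were listed in antisense without ABA and 6 with ABA, and 5 reached 20 reads in both libraries. TRNY had a mean of 66.3 and 63.7 antisense reads, and TRNC 62.6 and 61.0. Antisense TRNS1, next to the end of COX1, had 39.1 and 55.8 reads, and antisense TRNN 28.8 and 25.5. None of the 14 plus-strand tRNAs had a listed antisense position.

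ND6 was covered more deeply in antisense than in sense. Its own strand had a mean of 10.9 reads without ABA and 8.99 with ABA, and the opposite strand had 44.4 and 46.1. Minus-strand coverage did not stop at ND6. It was highest within 500 nt beyond the ND6 end that faces ND5, on the strand opposite to ND5, at 16.4 and 14.0 reads from 500 to 250 nt away and 15.0 and 14.3 in the last 250 nt. In the nearest 250 nt of ND6 with ABA it was 9.44. The control region, which holds the promoters and the origin of heavy-strand replication, was shallow on both strands, at 10.8 and 8.16 reads on the plus strand and 9.90 and 8.98 on the other.

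The mitochondrial A-to-G rate, G reads over A plus G reads summed over positions, was 0.0993% without ABA (269 of 271010 reads, 0.0878 to 0.112). It reached 0.120% in the ABA library (341 of 283264 reads, 0.108 to 0.134). ABA over no ABA gave 1.21 (1.03 to 1.43). These rates leave out positions where a change reached 35% of reads in a library, which are described further on. A-to-C was lower and nearly equal in both, at 0.0236% (64 reads) and 0.0233% (66 reads), a ratio of 0.987 (0.689 to 1.41). A-to-T was the rarest, at 0.00923% (25 reads) and 0.0134% (38 reads), a ratio of 1.45 (0.855 to 2.51). Among the 3 changes, A-to-G alone had an interval that did not hold 1. That interval did hold 1 when reads were thinned to the lower depth at each position (1.14, 0.961 to 1.36), when rRNA was left out (1.18, 0.974 to 1.44), and when the positions past 35% were kept (1.08, 0.949 to 1.23). Because 1 read spans several positions, neighbouring counts are not independent and the intervals are too narrow.

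The reads that made up these rates were spread thinly. A G read was seen at 4.53% of positions without ABA and at 6.13% with ABA, after the same positions were left out. Of these, 246 and 293 had 1 G read, 10 and 24 had 2, and 1 and 0 had more. In the 3982 such positions covered by 20 or more reads each time, 248 had a G read without ABA, 316 had one with ABA, and 26 had one in both. That overlap is 10.5% of the first list and 8.23% of the second. The lists themselves hold 6.23% and 7.94% of the 3982 positions.

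By strand, the plus-strand rate was 0.102% (265 reads) and 0.124% (341 reads), with a ratio of 1.21 (1.03 to 1.43). On the minus strand 4 of 12079 reads were G without ABA, 0.0331% (0.00902 to 0.0848), and 0 of 7757 with ABA. A count of 0 allows up to 3 reads, so a fall on the minus strand was not detectable at this depth.

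Among the transcript kinds, rRNA had the highest A-to-G rate in both libraries, 0.123% (77 reads, 0.0973 to 0.154) without ABA and 0.161% (101 reads, 0.131 to 0.196) with ABA. The mRNAs on their coding strands had 0.0969% (176 reads) and 0.114% (226 reads). The ratio was 1.31 (0.962 to 1.78) for rRNA and 1.18 (0.965 to 1.45) for mRNAs, and rRNA over plus-strand mRNAs came to 1.10 (0.773 to 1.58). Antisense positions had 0.0640% (15 reads) and 0.0588% (12 reads), but the strands differed. On the plus strand they had 0.0908% (12 reads) and 0.0874% (12 reads), near the mRNA rate without ABA. On the shallow minus strand they had 0.029% (3 reads) and 0 of 6670 reads. Sense tRNA positions had 0 of 851 G reads and 0 of 739, and the control region 1 of 2261 and 0 of 1359. Positions between genes had 0 of 411 and 2 of 457. Those counts are too small to compare with the other kinds. The kinds were not matched for depth, and rRNA was the deepest, at a mean of 74.6 and 75.1 reads.

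**Figure D2:**
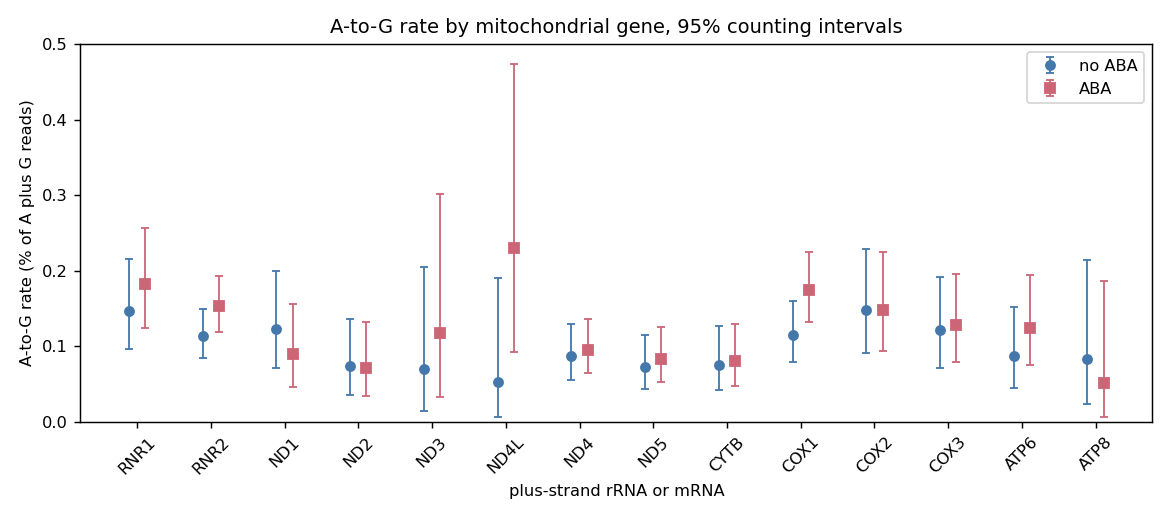
A-to-G rate in percent of A plus G reads for the 14 rRNAs and mRNAs of the plus strand; circles are the library without ABA, squares the one with ABA, and bars are 95% Clopper-Pearson intervals for counting error. The points span 0.0527 to 0.148% without ABA and 0.0514 to 0.230% with ABA, and the bars of the libraries overlap in every gene.

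Gene by gene, the rate with ABA lay above that without it in 11 of the 14 plus-strand rRNAs and mRNAs and below it in 3. In 0 of the 14 did the interval of the ratio leave out 1. The median rate of these genes was 0.0869% without ABA and 0.121% with ABA. Of the 14 antisense stretches with at least 200 base reads in both libraries, 2 were higher with ABA and 6 lower. Antisense TRNS1 had the highest rate with ABA of all stretches with that many reads, 0.409% (5 reads), and 0 of 860 reads without ABA. RNR1 had 0.147% (26 reads) and 0.182% (32 reads), and RNR2 0.114% (51 reads) and 0.153% (69 reads). COX1 had 0.115% (34 reads) and 0.174% (59 reads), a ratio of 1.52 (0.977 to 2.38). Without the COX1 position that had the most G reads it was 1.58 (1.01 to 2.52). COX2 had 0.148% in both. ND1 was lower with ABA, at 0.123% (16 reads) and 0.0895% (12 reads), a ratio of 0.726 (0.314 to 1.64). ND4L, with 2 and 7 G reads, had the largest ratio, 4.37, and an interval of 0.832 to 43.1.

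Grouped by complex, the complex IV mRNAs had 0.124% (72 reads) and 0.156% (102 reads), a ratio of 1.26 (0.923 to 1.73). The plus-strand complex I mRNAs had 0.0843% (73 reads) and 0.0930% (86 reads), a ratio of 1.10 (0.798 to 1.53). Complex IV over complex I was 1.14 (0.741 to 1.76), so a difference in response between them was not detectable. CYTB had 0.0755% and 0.0805%, and the complex V mRNAs 0.0916% and 0.116%.

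Within reading frames, the first codon position had 0.102% (65 reads) and 0.0910% (63 reads), the second 0.112% (46 reads) and 0.140% (63 reads), and the third 0.0863% (64 reads) and 0.123% (100 reads). The ratio was 0.893 (0.622 to 1.28) at the first, 1.26 (0.846 to 1.88) at the second and 1.42 (1.03 to 1.98) at the third. The third over the first was 1.59 (0.998 to 2.54), an interval that holds 1. By depth, positions with a mean of 50 to under 100 reads had 0.0914% (138 reads) and 0.132% (217 reads), a ratio of 1.44 (1.16 to 1.80). Those from 100 reads had 0.142% (80 reads) and 0.138% (82 reads), a ratio of 0.976 (0.708 to 1.35). For those from 20 to under 50 reads the ratio was 0.948 (0.604 to 1.485). The shallowest, from 6 to under 20 reads, had 8 of 16425 G reads without ABA and 0 of 10417 with ABA, a ratio of 0 with an upper limit of 0.924. The interval of the ratio thus lay above 1 at 50 to under 100 reads. It held 1 at 20 to under 50 reads and from 100 reads. Only in the shallowest range did it lie below 1, on 8 G reads against 0. The ratio at 50 to under 100 reads over that of the deepest positions was 1.48 (1.01 to 2.15). These splits were looked at together and carry no adjustment.

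Nuclear positions within the same limits of depth served for comparison. At 20 to 200 reads in both libraries, the mitochondrial A-to-G rate was 0.103% without ABA and 0.125% with ABA, a ratio of 1.22 (1.03 to 1.44). Nuclear positions had 0.0658% and 0.124%, a ratio of 1.88. The mitochondrial ratio was 0.648 times the nuclear one (0.550 to 0.764). The depths were not equal within these limits, with a mean of 63.5 and 68.2 reads at mitochondrial and 33.4 and 33.9 at nuclear positions, and the nuclear rate was higher at deeper positions. The comparison was therefore repeated within ranges of mean depth, chosen after the data had been seen. From 20 to under 50 reads, the nuclear rate was 0.0501% and 0.0926%, and the mitochondrial ratio was 0.512 times the nuclear one (0.334 to 0.784). From 50 to under 100 reads, it was 0.106% and 0.195%, and the factor was 0.784 (0.629 to 0.977). From 100 to 200 reads, it was 0.162% and 0.318%, and the factor was 0.498 (0.363 to 0.683). In each range the libraries thus differed less in mitochondrial than in nuclear A-to-G. In each range the nuclear rate with ABA also lay above the mitochondrial one, which the rates over 20 to 200 reads do not show. From 20 to under 50 reads the mitochondrial rate with ABA was 0.0867% (0.0625 to 0.117), an interval that holds the nuclear rate. Over all nuclear positions the ratio was 2.01 for A-to-G, 1.21 (1.15 to 1.27) for A-to-C and 1.07 (1.01 to 1.14) for A-to-T. The intervals of the other changes thus lay above 1 there, but such intervals are too narrow. At 20 to 200 reads in both libraries the nuclear ratio was 1.06 (0.984 to 1.14) for A-to-C and 0.997 (0.904 to 1.10) for A-to-T. Both of these intervals hold 1.

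**Figure D3:**
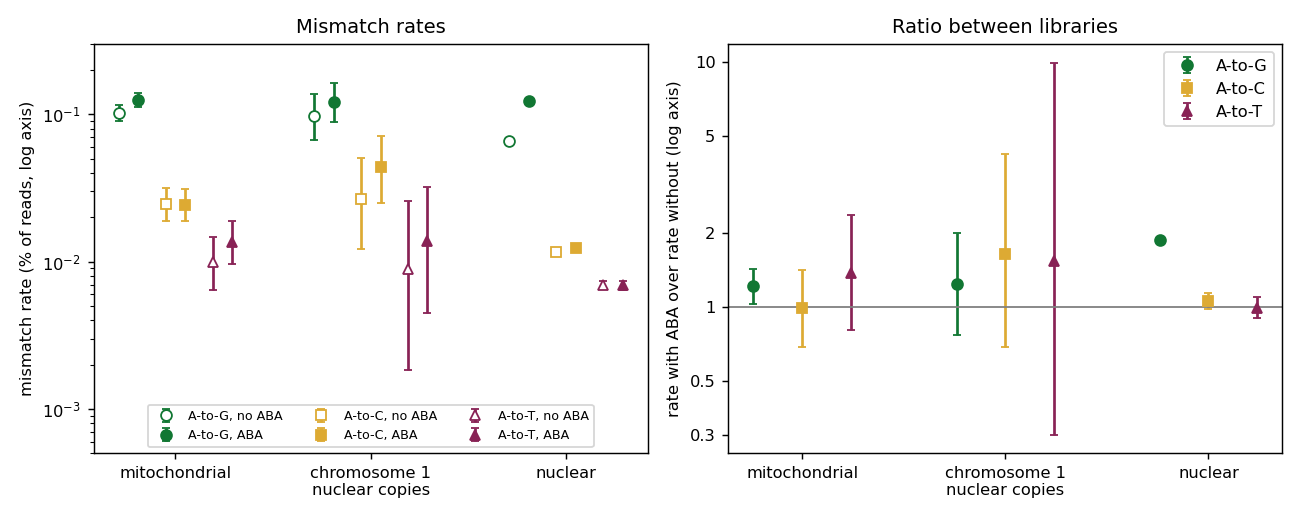
Left, rates of A-to-G, A-to-C and A-to-T in percent (log axis) at mitochondrial positions, the chromosome 1 nuclear copies and other nuclear positions, the first and last at 20 to 200 reads in both libraries, open symbols without ABA and filled symbols with ABA; right, rate with ABA over rate without (log axis), with 95% intervals for counting error. The A-to-G ratio is 1.22 for mitochondrial and 1.88 for nuclear positions, and the A-to-C and A-to-T ratios have intervals that hold 1 in all 3 sets as plotted.

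Some reads of mitochondrial RNA may lie elsewhere in the files. Chromosome 1 holds a nuclear copy of the stretch from ND1 to COX3, a piece of mitochondrial DNA inserted into the nuclear genome and nearly identical to its source. In the files this copy had 33759 base reads without ABA and 36351 with ABA, of which 99.2% and 99.4% lay on the strand that matches the plus strand. On that strand it had 33504 base reads without ABA against 106382 on chrM from ND1 to COX3, and 36129 against 115341 with ABA. With ABA that is 23.9% of both together. Its mean plus-strand depth was 31.7 and 33.6, against 60.6 and 66.7 on chrM from ND1 to COX3. Its A-to-G rate was 0.0978% (33 reads) and 0.121% (44 reads), a ratio of 1.24 (0.771 to 2.01). That was 0.616 times the ratio of 2.01 over all nuclear positions (0.392 to 0.968), and at 20 to 200 reads in both libraries the factor was 0.665 (0.417 to 1.06), whose interval holds 1. Reads of the copy and of chrM cannot be told apart here, so the depth of ND1, ND2, COX1, COX2, ATP8, ATP6 and COX3 is uncertain. So is that of the tRNA stretches between them on either strand, among them antisense TRNY, TRNC, TRNN and TRNS1. The 23.9% is pooled over the stretch, in which 1075 positions of the copy and 1730 of chrM were listed with ABA. The chrM side runs from the first base of ND1 to the last of COX3, and whether the copy spans all of that was not checked. A share by gene was not computed. The copy was left out of the nuclear set above.

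Single positions were compared between the libraries with Fisher's exact test, two-sided, with Benjamini-Hochberg adjustment over all 364300 positions of the series with at least 20 reads in both. None of the 3985 mitochondrial positions was called for A-to-G, A-to-C or A-to-T at an adjusted p of 0.05 and a change of 10 percentage points. Over the whole series 0 were called for each change, a background of 0%. Without adjustment, 0 mitochondrial positions had a p under 0.05 for A-to-G, and over the whole series 70 did, or 0.0192%, a share at which under 1 mitochondrial position would be met. At the median depths of the mitochondrial positions tested, 59 and 64 reads, a single position with no G read without ABA would need 22 G reads with ABA, a share of 34.4%, to be called. Smaller changes at single positions were not detectable. The lowest unadjusted exact p among mitochondrial positions was 0.170 for A-to-G, 0.209 for A-to-C and 0.393 for A-to-T. The test compares these libraries and not the conditions. Of 2446 positions covered by 50 or more reads each time, the 10 largest rises all went from 0 to 2 G reads, by 2.11 to 3.39 points. The largest was in RNR1 at chrM position 1308, with 0 of 58 and 2 of 59 reads. The 10 largest falls all went to 0 G reads, the largest in ND5 at position 12537, with 2 of 65 and 0 of 70.

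A few positions did carry a high share of another base, and they did so in both libraries. With at least 20 reads, at least 3 reads of the other base and a share of at least 10% in each library, 3 of 3985 mitochondrial positions passed for A-to-G, 0 for A-to-C and 1 for A-to-T. Over all 364300 positions 0.0253% passed for A-to-G, 0.00467% for A-to-C and 0.00192% for A-to-T. No position lay just below the limit, at 5 to 10% in both libraries, and none passed in only 1 library. The highest remaining share seen in both was in COX1 at position 5915, with 1 of 29 G reads without ABA and 1 of 25 with ABA. Coordinates are those of the hg19 chrM, whose numbering differs from that of later builds.

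The A-to-G positions showed G in every read. ND4 position 11468, the third base of codon 236, had 49 of 49 G reads without ABA and 50 of 50 with ABA. CYTB position 15219, the first base of codon 158, had 39 of 39 and 40 of 40. CYTB position 15302, the third base of codon 185, had 43 of 43 and 49 of 49. CYTB position 14906, the third base of codon 53, fell just short of the coverage limit, with 19 of 19 and 17 of 17. A pair of others were listed only without ABA, CYTB position 14794 with 12 of 12 G reads and position 150 of the control region, minus strand, with 9 of 9. Wherever listed, all of these carried only G, with no A read, whereas the next highest A-to-G share in both libraries was a single read. Whether they are differences of the cell line's mitochondrial DNA from the hg19 sequence or changes made in RNA was not tested, since no DNA reads were used here. The nuclear copy on chromosome 1 held no position with a share of 35% or more. These ND4, CYTB and control region positions lie outside the stretch that it copies, so it could not show them.

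**Figure D4:**
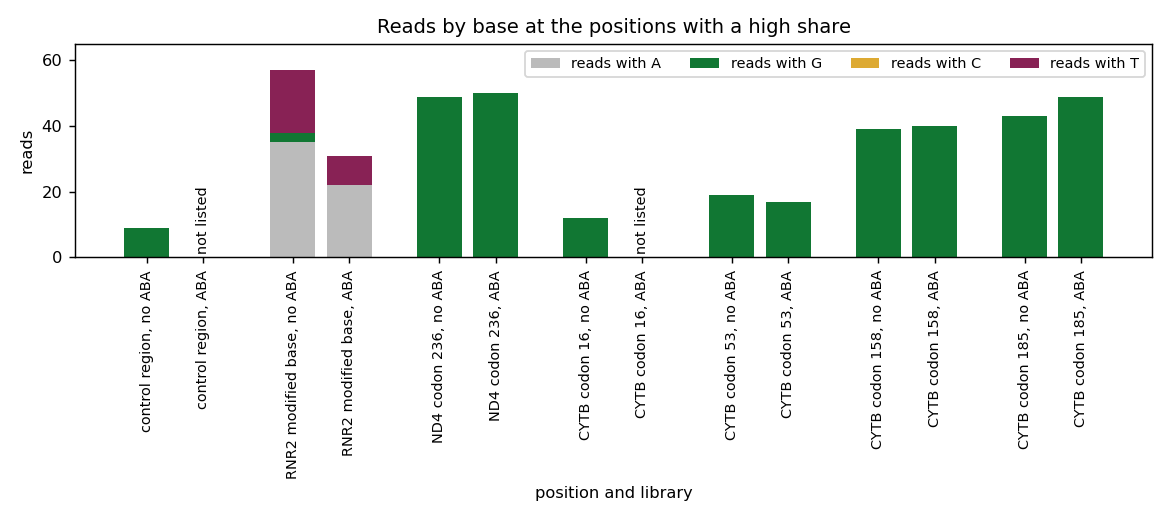
Reads showing A, G, C or T, as stacked bars in counts, at the positions with a high share of another base in each library, ordered along the genome. RNR2 alone shows a mixture, with 19 of 57 reads T without ABA and 9 of 31 with ABA, while the ND4, CYTB and control region positions show G in every read.

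The A-to-T position lay in the large rRNA, RNR2, at chrM position 2619, and it behaved unlike the others. Without ABA it had 35 A, 19 T and 3 G reads of 57, and with ABA 22 A, 9 T and 0 G reads of 31. The T share, of A plus T reads, was 35.2% in the library without ABA (22.7 to 49.4) and 29.0% in the other (14.2 to 48.0). The exact Fisher p was 0.636 unadjusted and 1 after Benjamini-Hochberg adjustment, so a difference between the libraries was not detectable at this depth. This base is a known site of N1-methyladenosine in the mitochondrial large rRNA, made by the methyltransferase TRMT61B. The rest of RNR2 had 6 T reads without ABA and 8 with ABA, so that of all 44 and 47 mitochondrial T reads in A-to-T counts, 19 and 9 were at this 1 base. Since its share was past 35% without ABA, it is left out of the A-to-T rates above. With it kept, the mitochondrial A-to-T ratio was 1.02 (0.663 to 1.58).

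**Figure D5:**
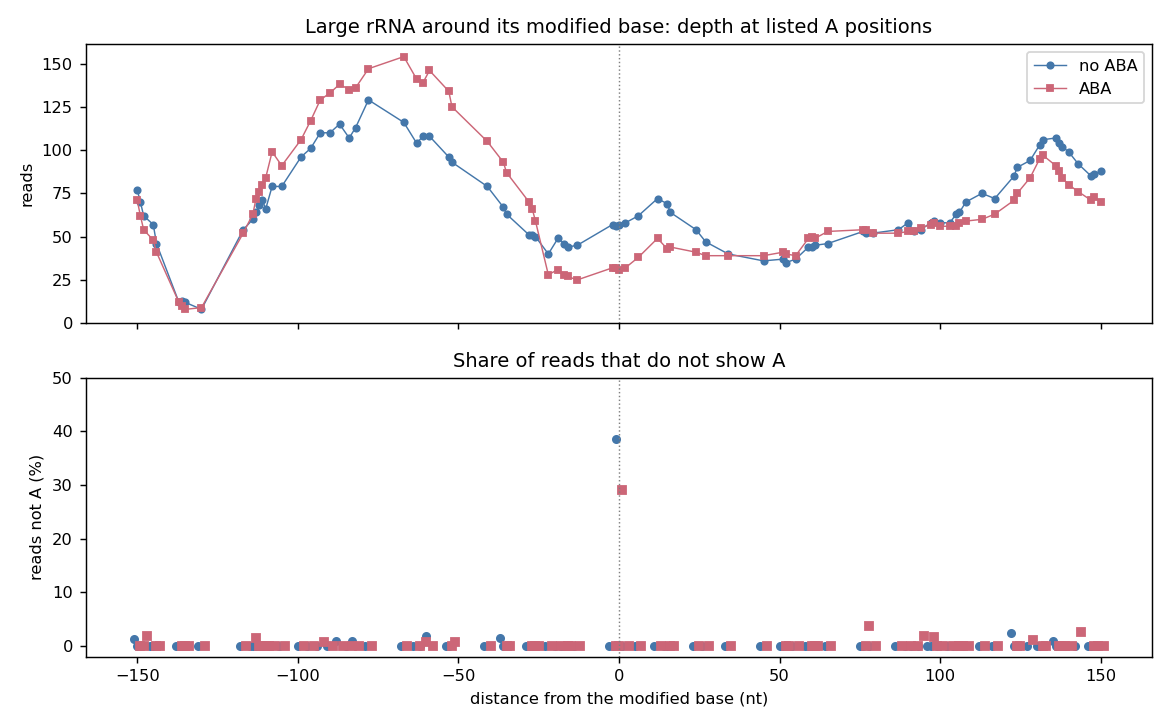
Reads at listed A positions of RNR2 (above) and the percent of reads that do not show A (below) by distance in nt from the modified base, with circles for the library without ABA and squares for the one with ABA. The base at 0 stands apart at 22 of 57 and 9 of 31 reads, and depth goes up and down on both sides of it.

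Depth varied along RNR2 around that base, with no single trend over the 150 nt on each side. It averaged 52.8 and 54.8 reads from 150 to 101 nt upstream, 108 and 134 reads from 100 to 51 nt upstream, 53.7 and 52.5 in the 50 nt before it, 55.8 and 40.4 in the 50 nt after it, 49.4 and 50.9 from 51 to 100 nt downstream, and 86.5 and 74.1 from 101 to 150 nt downstream. In the 50 nt before the base, the near-equal means hide different ranges, 40 to 79 reads without ABA and 25 to 105 with ABA. The farthest listed position of those 50 nt had 79 and 105 reads, and the position just before the base 56 and 32. The median depth of RNR2 was 79 and 78. Of RNR2 positions, 25.9% were shallower than the modified base without ABA and 3.33% with ABA. The lower T count with ABA thus went with a lower depth at that base, and the part of depth in the T share was not tested.

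Other known modified adenosines could mostly not be read. Base 9 of tRNAs is methylated at N1 in mitochondrial tRNAs that have A there, and of 22 tRNAs 0 had base 9 listed on the sense strand. Which of them have A at base 9 was not checked, as no sequence was at hand, and a tRNA with another base there could not be listed. The ND5 mRNA carries a known N1-methyladenosine, at chrM position 13711, which had 0 of 35 reads other than A without ABA and 0 of 44 with ABA. With ABA that count allows a share of up to 8.04% (Clopper-Pearson upper limit), which lies below the T share of the RNR2 base. Smaller shares were not detectable at this depth.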

How the data were processed

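The authors deposited, for each library, raw counts of reads per base at the listed positions of each strand. Per the file headers a cutoff of 5 reads was applied. The submitters' processing notes name cutadapt, HISAT2 and hg19, with no versions. The base-counting program and the treatment of duplicate reads are not given in the sources used here, so depth is not read as RNA abundance. Libraries were mRNA-enriched per the labels.

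Region limits of the 37 genes were written by hand. Names and order were checked against a RefSeq table of another build, in which 36 of the 37 had the same length. The fit to the files was checked by the start codons of the 12 plus-strand reading frames. A was listed at the first base in 7 of them and at the second in 0. This check does not cover the limits of the rRNAs. The limits of the chromosome 1 copy were written by hand too, after the files had been seen. The members, regions, modified bases and splits were chosen with earlier results of these data known. Positions were named by fixed limits: at least 20 reads, 3 reads of the other base and a 10% share in both libraries, the 10 largest changes each way, and known modified bases.

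Shares have Clopper-Pearson intervals and ratios exact conditional binomial intervals. Differences and the 12 ratios of ratios have normal approximations. The site test was tested on simulated data. Python 3.11.15, numpy 2.4.6, pandas 2.3.3 and scipy 1.17.1 were used. No mitochondrial sequence of hg19 was at hand, so none is printed.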

Additional observations from a re-analysis of the deposited data

How the results depend on the processing

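Mitochondrial base reads were 0.531% of all without ABA and 0.626% with ABA over all listed positions, and 2.04% and 2.15% over positions with at least 20 reads in both, since the shallow positions dropped are mostly nuclear. With a coverage minimum of 50 reads in place of 20, the number of positions with a high share in both libraries went from 3 to 0 for A-to-G and from 1 to 0 for A-to-T, because each has under 50 reads in a library. The mitochondrial A-to-G ratio stayed above 1, but its interval held 1 with reads thinned to the lower depth (1.14), with rRNA left out (1.18) and with the positions past 35% kept (1.08). For single genes and complexes, 92 of 93 alternatives left the interval on the same side of 1 or still holding it, the exception being COX1 without its position of most G reads (1.58). Ratios whose intervals hold 1 have no settled direction: the value itself crossed 1 for mitochondrial A-to-C and for A-to-G of COX2, CYTB, ND2 and ND4 in some settings. Adding the chromosome 1 copies, a choice made after the data had been seen, gave 1.22. No paired analysis was possible because there was 1 library per condition, and no library could be left out. Duplicate reads, the library and ABA cannot be separated in these data.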
